A study of Mus musculus with 4 samples.

Results

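The expression of 10 genes that are commonly used as readouts of glucocorticoids and of retinoic acid was described in cultured mouse alveolar type II cells. The 10 genes were chosen by their known function, with earlier results of these data known. They were found by Entrez identifier among the 28096 identifiers of the deposited tables. Of these genes, 6 are induced by glucocorticoids (Fkbp5, Tsc22d3, Per1, Klf9, Sgk1 and Zbtb16) and 4 belong to retinoic acid metabolism and response (Cyp26a1, Cyp26b1, Stra6 and Dhrs3). The 4 libraries analysed were prepared from polyadenylated RNA and carry the genotype label KRasEtv wt. The series title names Etv target genes, and its design text gives 3 genotypes: KRaswt/d12;RosaCreERT2, the same with Etv5loxp/loxp, and the same with both Etv4KO/KO and Etv5loxp/loxp. KRaswt/d12 and RosaCreERT2 are shared by all 3, and the labels do not say which of the 3 KRasEtv wt stands for. RosaCreERT2 is a Cre recombinase fused to a modified oestrogen receptor and expressed from the Rosa26 locus, which is active in most cell types.

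Per the labels, type II cells were sorted by surface protein (EpCAM present, CD24, CD45, CD31 and Pdpn absent) and kept in matrigel in BEGM medium. 4OHT, the tamoxifen metabolite that activates CreERT2, was present at 100 nM for 4 days and absent for 1 further day before RNA extraction. All 4 libraries had this treatment, so a library without 4OHT or in another medium was not analysed here. The labels give no replicate numbers, and libraries 1 to 4 are names in accession order. The design text gives 4 mice per genotype, but nothing in the labels ties a library to a mouse. The spread given as SD is therefore the spread between these libraries and may be technical in part.

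Glucocorticoids enter the cell and bind the glucocorticoid receptor, a transcription factor held in the cytoplasm by HSP90 and its partner proteins. The bound receptor moves to the nucleus and acts on response elements, which are palindromes of a pair of hexamers. Glucocorticoids promote maturation and surfactant production of the alveolar epithelium before birth. Retinoic acid is made from retinol in a pair of oxidation steps and acts through nuclear receptors that bind direct repeats of a hexamer as RAR and RXR heterodimers. It is required for formation of the lung and for alveolar septation, and cells limit it with the CYP26 enzymes. BEGM, a medium for bronchial epithelium, is commonly supplied with hydrocortisone and retinoic acid among its supplements. The labels do not list the supplements used, and a part of the medium in any level below was not tested.

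Reads counted per library ranged from 12133251 to 13591876, and the mitochondrial ribosomal RNAs took 19.6% to 38.9% of them. Markers of the labelled cell type were abundant, with all 10 type II markers averaging 1 or more and a summed level of 10444 to 22623 nRPKM (size-factor-adjusted RPKM, the authors' value, which is scaled for library size and gene length). Of the markers of other cell types, 5 of 6 type I, 4 of 4 club, 3 of 4 basal, 4 of 5 leukocyte, 3 of 5 mesenchymal and 0 of 4 endothelial averaged 1 nRPKM or more. The type I markers summed to 382 to 517 nRPKM, and Pdpn, whose protein was used to gate cells out, averaged 21.1 ± 5.34 nRPKM (SD, n = 4). Library 1 stood apart, with the lowest value of each of the 10 type II markers. Library 3 stood apart in the X-inactivation RNA Xist (66.3 nRPKM, against 0.255 to 0.784 in the other libraries) and in the Y-linked Eif2s3y (0.243 nRPKM, against 14.6 to 23.2). In bulk RNA, fewer cells of a type and less RNA per cell cannot be told apart.

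An average of 1 nRPKM or more was reached by 6 of the 10 genes, against 42.4% of all 28096 identifiers. They were 5 of the 6 glucocorticoid-induced genes and 1 of the 4 retinoic acid genes. The median over the 6 glucocorticoid-induced genes was 2.26 nRPKM and that over the 4 retinoic acid genes was 0.132 nRPKM, against 0.345 nRPKM over all identifiers. In descending order of mean level the genes were Dhrs3, Klf9, Sgk1, Tsc22d3, Per1, Fkbp5, Zbtb16, Cyp26b1, Stra6 and Cyp26a1. Of the 9 pairs of neighbours in this order, 3 had ranges that did not overlap between libraries: Klf9 above Sgk1, Fkbp5 above Zbtb16, and Stra6 above Cyp26a1. For Stra6 and Cyp26a1 this rests on few reads, since the 3 reads of Stra6 in library 4 are within what a count of 0 allows. The ranges of the other neighbours overlapped, although Tsc22d3 was above Per1 in 4 of 4 libraries. Cyp26b1 was above Stra6 in 1 of 4 libraries, and without library 1 their order was reversed. Reads of these genes could be assigned with little ambiguity, since at most 1.04% of the 50-base words of a transcript (Tsc22d3) also occurred in another annotated gene, and no exon base of the 10 genes overlapped an exon of another gene.

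**Figure D1:**
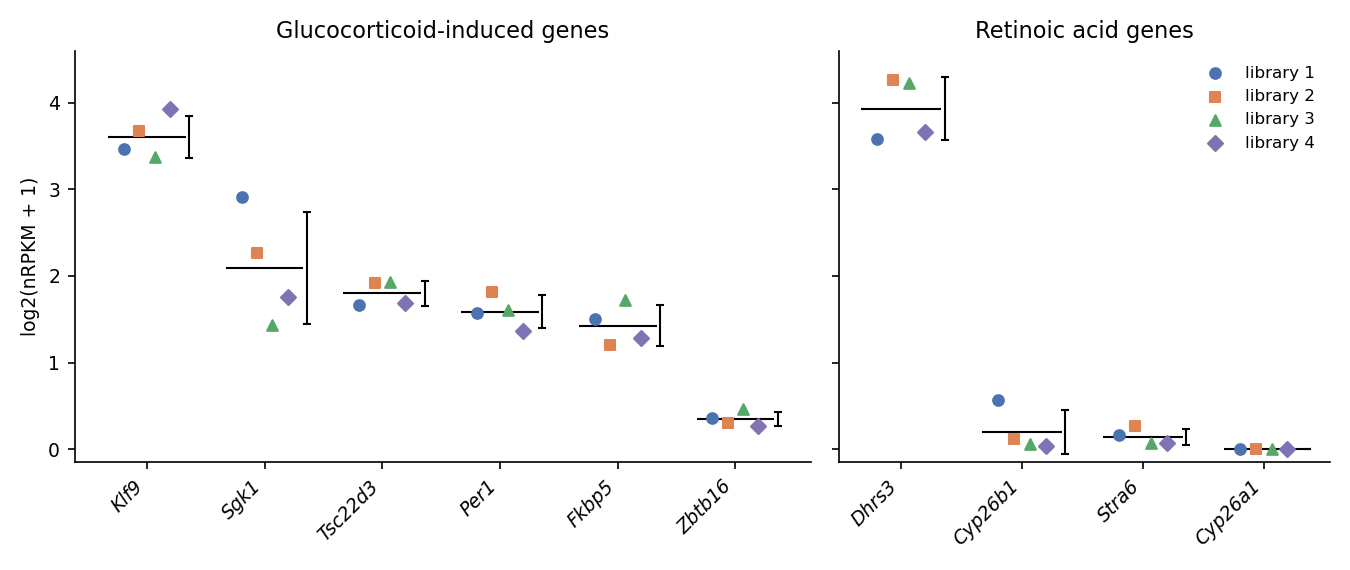
Levels of the 10 genes as log2(nRPKM + 1), with a symbol per library, a bar at the mean of the log values and an error bar of 1 SD (n = 4). Dhrs3 and Klf9 lie above the other genes in every library, Sgk1 has the widest spread, and Cyp26a1 lies at 0 in all 4 libraries.

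Among the glucocorticoid-induced genes, Klf9 was the highest. Klf9 (Entrez 16601), a Krüppel-like transcription factor, measured 10.07, 11.7, 9.37 and 14.2 nRPKM across libraries 1 to 4 (640 to 753 reads). Its mean of 11.3 ± 2.13 nRPKM (SD, n = 4) lay above 87.8% of all identifiers. Library 4 was the highest on the authors' scaling. Scaled to total counts instead, the range of Klf9 over the libraries was 0.15 log2 units, against 0.55 on the authors' scaling. It was 0.55 with TMM library sizes and 0.51 with total counts less the mitochondrial ribosomal RNAs.

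Tsc22d3 (14605) encodes GILZ, a leucine zipper protein that mediates anti-inflammatory effects of glucocorticoids. It had 2.17, 2.78, 2.82 and 2.22 nRPKM in libraries 1 to 4, on 90 to 147 reads. Libraries 2 and 3 were higher than libraries 1 and 4, with a mean of 2.50 ± 0.352 nRPKM (SD, n = 4). The range of 0.27 log2 units was 0.55 when scaled to total counts. It was 0.26 with TMM library sizes and 0.31 with total counts less the mitochondrial ribosomal RNAs. Tsc22d3 is X-linked, and library 3 stood apart in Xist. The part of this in its level was not tested. Per1 (18626), a repressor of the circadian clock that glucocorticoids also induce directly, had 1.96, 2.53, 2.05 and 1.57 nRPKM. Its mean was 2.03 ± 0.395 nRPKM, and library 2 was the highest.

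Fkbp5 (14229) encodes FKBP51, an HSP90 partner that lowers the receptor's affinity for hormone and so closes a negative feedback loop. It had 1.83, 1.30, 2.30 and 1.43 nRPKM in libraries 1 to 4, on 77 to 161 reads, with a mean of 1.71 ± 0.451 nRPKM (SD, n = 4). Library 3 was the highest and library 2 the lowest. Zbtb16 (235320), the zinc finger factor PLZF, was low at 0.278, 0.231, 0.374 and 0.204 nRPKM on 17 to 40 reads. In library 4 this count lay above the 3 reads that a count of 0 allows, so Zbtb16 was detected in each library at a low level.

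Sgk1 (20393), a kinase that raises sodium channel activity at the cell surface by restraining the ubiquitin ligase NEDD4L, had the widest range between libraries of the 6 genes averaging 1 nRPKM or more. It had 6.54, 3.79, 1.70 and 2.39 nRPKM in libraries 1 to 4, on 554, 280, 148 and 162 reads. Library 1 was 3.845 times library 3, the lowest. The mean was 3.60 ± 2.14 nRPKM (SD, n = 4), and it was 2.63 without library 1. The range of Sgk1 was 1.48 log2 units, wider than that of 96.8% of the 11904 identifiers averaging 1 nRPKM or more, and 0.83 without library 1.

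The Sgk1 gene carries a complete glucocorticoid response palindrome beside 1 of its annotated starts, and that window is shown because a full palindrome was rare. The motif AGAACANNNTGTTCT was searched on both strands of the RefSeq promoter windows (250 bases before to 50 after each annotated start, GRCm38.p6). It occurred in 3 of 32851 windows (0.00913%), of which 1 was a window of Sgk1 (6 windows), 189 bases before the start. The looser form GNACANNNTGTNC, which covers the same site, was in 0.475% of windows and in no further window of the 10 genes. A match describes these letters and not a site in use, and these coordinates are of GRCm38.p6, whereas the authors' reads were placed on mm9. The window is on the plus strand at chr10:21993640-21993939 of GRCm38.p6, with the palindrome in capitals.
Sgk1: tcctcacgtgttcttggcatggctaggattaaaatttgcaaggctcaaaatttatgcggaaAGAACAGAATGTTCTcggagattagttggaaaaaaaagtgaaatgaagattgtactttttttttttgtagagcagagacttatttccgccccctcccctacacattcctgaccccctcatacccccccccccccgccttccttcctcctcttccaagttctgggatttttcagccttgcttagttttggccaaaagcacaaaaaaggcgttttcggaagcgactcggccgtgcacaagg

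**Figure D2:**
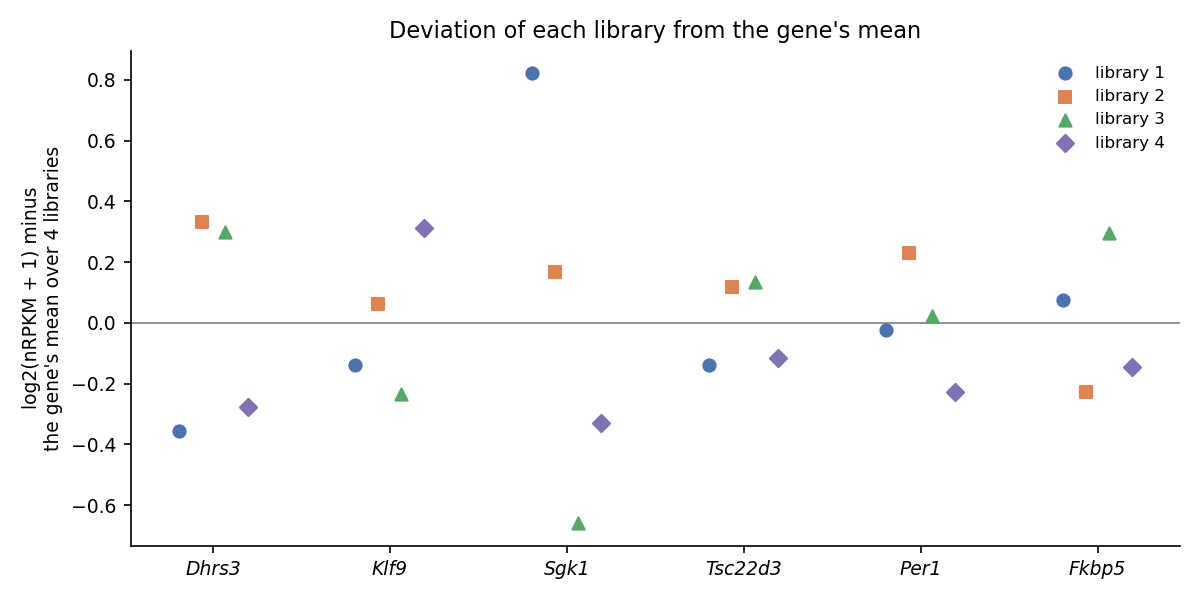
Deviation of each library from the gene's mean over the 4 libraries, as log2(nRPKM + 1), for the 6 genes averaging 1 nRPKM or more. Sgk1 spans 1.48 log2 units between library 1 and library 3, and the 5 other genes span 0.27 to 0.69 log2 units and are not all highest in the same library.

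The receptor for glucocorticoids was expressed in every library. Nr3c1, the glucocorticoid receptor, had 8.70, 10.5, 10.4 and 12.9 nRPKM in libraries 1 to 4, a mean of 10.6 ± 1.72 (SD, n = 4). Nr3c2, the mineralocorticoid receptor, which also binds glucocorticoids, was lower at 2.70 ± 0.0843 nRPKM (SD, n = 4) and varied little. In each of the 4 libraries Nr3c1 exceeded Nr3c2, with a log2 difference of 1.64 ± 0.23. An exact permutation test that flips signs over 4 libraries (two-sided) cannot go below p = 0.13, which this difference had (adjusted p = 0.143 over 8 pairs of related genes).

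Enzymes that set the local glucocorticoid supply were also found. Hsd11b2, which inactivates glucocorticoids, had 3.13, 4.17, 3.00 and 1.56 nRPKM. Hsd11b1, which reactivates them, had 3.83, 0.779, 0.198 and 0.509 nRPKM in libraries 1 to 4, so library 1 stood above the other libraries. Only in library 1 did the Hsd11b1 value exceed that of Hsd11b2. H6pd, which supplies the cofactor of HSD11B1, was high at 44.7 ± 10.7 nRPKM (SD, n = 4).

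Of the 6 genes for HSP90 and its partner proteins, all averaged 1 nRPKM or more. The highest were Hsp90ab1 with 370.2 ± 79.4 nRPKM, Fkbp4 with 95.1 ± 37.4 and Stip1 with 33.8 ± 5.29 (SD, n = 4). Fkbp4 encodes FKBP52, which competes with FKBP51 for the same position on HSP90 and raises the receptor's response. Fkbp5 lay below Fkbp4 by 5.08 log2 units (difference -5.08 ± 0.33), in 4 of 4 libraries (exact permutation test, p = 0.13, adjusted p = 0.143). Hsp90aa1 shares 58.5% of its 50-base words with other genes, so its level of 8.90 ± 2.52 nRPKM, counted among the 6, is uncertain.

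Close relatives of the members were compared in the same way. Tsc22d3 lay below its relative Tsc22d1, which had 21.7 ± 2.63 nRPKM, in 4 of 4 libraries (log2 difference -2.69 ± 0.09). Sgk1 lay above Sgk3, which had 1.03 ± 0.0931 nRPKM, in 4 of 4 libraries (log2 difference 1.07 ± 0.67). That difference ranged over 0.44 to 1.97 in single libraries, since Sgk3 was even and Sgk1 was not. Sgk2 was at 0.271 ± 0.117 nRPKM. Nedd4l, the ligase that SGK1 restrains, had 12.9 ± 1.32 nRPKM, and Klf13, a Krüppel-like factor related to Klf9, had 6.73 ± 0.722 (SD, n = 4 throughout). The exact permutation p of both differences was 0.13, with an adjusted p of 0.143.

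Of 16 other genes that glucocorticoids induce in various cell types, 14 averaged 1 nRPKM or more. The iron-binding lipocalin gene Lcn2 had 313.9 ± 147 nRPKM, and the metallothionein genes Mt2 and Mt1 had 214.9 ± 120 and 151.9 ± 107 (SD, n = 4). Mt2 shares 45.5% of its 50-base words with another annotated gene, which makes its level uncertain. Within this list 7 genes were highest in library 1, 5 in library 2, 2 in library 3 and 2 in library 4, so the list had no common order of libraries. Many of its members also respond to other signals, and none is specific to glucocorticoids.

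Clock genes were listed because Per1 and Klf9 are also under circadian control, and 13 of 15 averaged 1 nRPKM or more. The highest were Bhlhe40 with 43.7 ± 8.25 nRPKM, Nr1d1 with 13.8 ± 0.881 and Clock with 10.3 ± 0.847 (SD, n = 4). Nr1d1 and Clock, the nuclear receptor REV-ERBα and the activator CLOCK, varied little between libraries. Per1 had a lower value than Per2 in 4 of 4 libraries (log2 difference -0.51 ± 0.46, exact permutation p = 0.13, adjusted p = 0.143). Per2 had 2.27, 3.54, 2.89 and 4.82 nRPKM in libraries 1 to 4, so it was highest in library 4, where Per1 was lowest.

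Of the retinoic acid genes, Dhrs3 stood far above the other 3. Dhrs3 (20148) encodes a reductase that turns retinaldehyde back into retinol and so limits retinoic acid, and its own expression is induced by retinoic acid. It had 10.9, 18.2, 17.8 and 11.6 nRPKM in libraries 1 to 4, on 340 to 670 reads. Libraries 2 and 3 were high and libraries 1 and 4 low, which is also how Tsc22d3, H6pd and Lcn2 were divided. The share of all identifiers with this division was not counted. The mean of 14.6 ± 3.90 nRPKM (SD, n = 4) lay above 90.6% of all identifiers.

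No read was counted for Cyp26a1 (13082) in any library. Cyp26a1 encodes the cytochrome P450 that clears retinoic acid, and it is strongly induced by retinoic acid in many cell types. The 3 reads that a count of 0 allows correspond to 0.221 to 0.247 CPM in these libraries. A count of 0 in a single library therefore does not exclude expression below this level. No 50-base word of its transcript occurred in another gene, and 7517 of all 28096 identifiers likewise had no read.

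The Cyp26a1 promoter window is shown because it holds a direct repeat of the kind that RAR and RXR bind. The direct repeat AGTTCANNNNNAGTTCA was found on the minus strand 32 bases before the start, with 8 of 32851 windows (0.0244%) holding it on either strand. The repeats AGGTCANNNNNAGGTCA, AGTTCANNAGTTCA and AGGTCANNAGGTCA were each in 0.00913% of windows and in no window of the 10 genes. No window was matched for Zbtb16, and the other 9 genes had 22. The Cyp26a1 window is on the plus strand at chr19:37697558-37697857 of GRCm38.p6, with the repeat in capitals as it reads on the plus strand.
Cyp26a1: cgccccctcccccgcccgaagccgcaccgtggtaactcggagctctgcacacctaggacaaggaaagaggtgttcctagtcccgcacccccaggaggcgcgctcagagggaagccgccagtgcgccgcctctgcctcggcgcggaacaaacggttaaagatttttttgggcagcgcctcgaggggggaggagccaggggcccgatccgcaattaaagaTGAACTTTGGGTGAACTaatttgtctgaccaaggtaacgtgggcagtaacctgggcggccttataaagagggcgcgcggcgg

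Cyp26b1 (232174), the related enzyme, was detected mainly in library 1. It had 0.486 nRPKM from 48 reads there, and 0.0813, 0.0394 and 0.0253 nRPKM from 7, 4 and 2 reads in libraries 2 to 4. The count in library 4 was within the 3 reads that a count of 0 allows. The mean level of 0.158 ± 0.220 nRPKM (SD, n = 4) was 0.0487 without library 1. The log2 difference of Cyp26b1 and Cyp26a1 was 0.19 ± 0.25, and 0.07 without library 1. With Cyp26a1 at 0 reads its sign was fixed by any read of Cyp26b1, so no p is given for this pair. The pair was still counted among the 8 over which p was adjusted. Cyp26c1, the third enzyme of the family, had 0 to 3 reads per library.

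Stra6 (20897), the cell surface receptor that takes up retinol from its carrier protein, was also near the limit. It had 0.121, 0.201, 0.0524 and 0.0505 nRPKM in libraries 1 to 4, from 9, 13, 4 and 3 reads. Library 2 was the highest and libraries 3 and 4 the lowest, and the mean was 0.106 ± 0.0712 nRPKM (SD, n = 4). Lrat, which stores retinol as esters, was not among the 2 of 9 genes of retinoid binding, uptake and storage averaging 1 nRPKM or more. Those were Rbp4, a retinol carrier, with 13.5 ± 1.73 nRPKM, and Dgat1, an acyltransferase that can also esterify retinol, with 4.70 ± 0.549.

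Retinoic acid receptors were present at low to moderate levels. Of the 6 receptor genes 4 averaged 1 nRPKM or more: Rxra with 5.07 ± 0.718 nRPKM, Rara with 2.76 ± 0.352, Rxrb with 2.72 ± 0.221 and Rarg with 2.17 ± 0.481 (SD, n = 4). Rxrg was at 0.265 ± 0.0502. Rarb, itself a classical target of retinoic acid, was at 0.641 ± 0.143 nRPKM on 25 to 38 reads, and 54.1% of its 50-base words also occur in Top2b, so this level is uncertain. The log2 difference of Rara and Rarg was 0.26 ± 0.11 and positive in all 4 libraries (exact permutation p = 0.13, adjusted p = 0.143).

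Of the 8 dehydrogenase genes of retinoid metabolism examined, 7 averaged 1 nRPKM or more, and none of the 3 CYP26 genes did. Genes for the first step, between retinol and retinaldehyde in either direction, included Rdh10 and Rdh11. Rdh10 had 36.8, 17.3, 21.1 and 21.5 nRPKM in libraries 1 to 4, and Rdh11 had 3.15 ± 0.262. Among the alcohol dehydrogenase genes, Adh5 had 33.8 ± 2.38 nRPKM, Adh7 had 2.25 ± 1.49 and Adh1 had 0.492 ± 0.176 (SD, n = 4). For the second step, retinaldehyde to retinoic acid, Aldh1a1 had 31.96, 14.97, 21.5 and 22.8 nRPKM. Aldh1a3 and Aldh1a2 were lower, at 1.86 ± 0.948 and 1.13 ± 0.343 nRPKM. Aldh1a1 shares 6.54% of its 50-base words with Aldh1a7.

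Dhrs3 and Rdh10 catalyse opposite directions of the same step and were set side by side. Dhrs3 was below Rdh10 in libraries 1, 3 and 4 and slightly above it in library 2, with log2 differences of -1.66, 0.07, -0.23 and -0.83 in libraries 1 to 4. The mean of -0.67 ± 0.76 had an exact permutation p of 0.25 (adjusted p = 0.25), and it was -0.33 without library 1. In library 1 Dhrs3 was at its lowest and both Rdh10 and Aldh1a1 were at their highest.

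**Figure D3:**
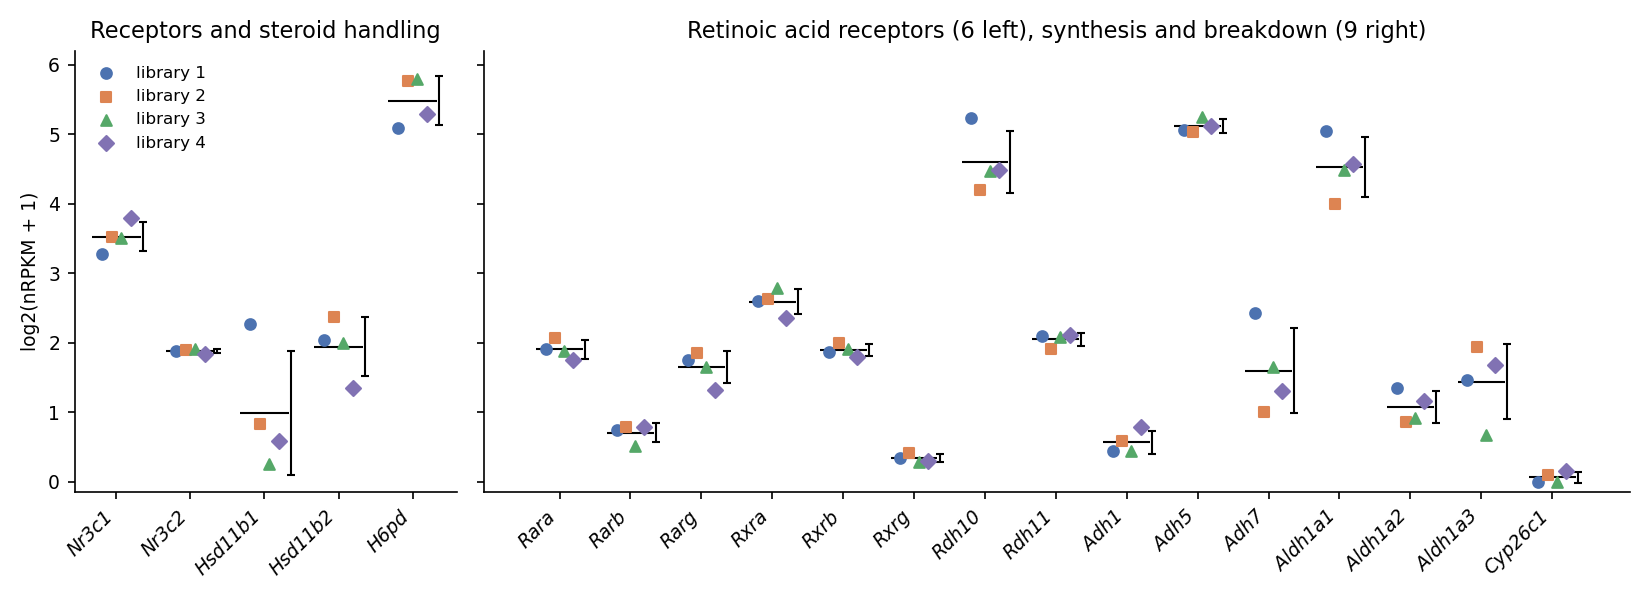
Levels of the glucocorticoid receptor and steroid handling genes (left) and of the retinoic acid receptor, synthesis and breakdown genes (right) as log2(nRPKM + 1), with a symbol per library, a bar at the mean and an error bar of 1 SD (n = 4). Rdh10, Adh5 and Aldh1a1 lie above all 6 receptor genes, Hsd11b1 is high in library 1 only, and Cyp26c1 is at or near 0.

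Of 9 other genes induced by retinoic acid in various cells, 3 averaged 1 nRPKM or more. They were Rai14 with 73.2 ± 12.05 nRPKM, the transglutaminase gene Tgm2 with 10.1 ± 1.38, of which 18.8% of the 50-base words are shared, and the corepressor gene Nrip1 with 6.73 ± 1.11 (SD, n = 4). The median over the 9 genes was 0.362 nRPKM, close to the 0.345 nRPKM of all identifiers.

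Of the 10 genes, 1 of the 6 glucocorticoid-induced genes (Sgk1) and 1 of the 4 retinoic acid genes (Cyp26b1) were highest in library 1. Of the identifiers averaging 1 nRPKM or more, 22.5% were. Hsd11b1, which is not among the 10, was also highest in library 1, as were 4 of the 9 genes of retinoid synthesis and breakdown. The basal, mesenchymal, leukocyte and endothelial marker sums were also highest there, and the club and type I sums were not. The 4 basal cell markers, which include the keratin gene Krt5, summed to 143, 101, 19.97 and 46.6 nRPKM in libraries 1 to 4, and 3 of the 4 were highest in library 1. The 5 mesenchymal markers, which include the collagen genes Col1a1 and Col1a2, summed to 26.3, 15.6, 4.63 and 10.8 nRPKM, with 4 of 5 highest in library 1. For the 5 leukocyte markers the sums were 67.2, 57.3, 25.3 and 15.96 nRPKM, with 2 of 5 highest in library 1 and 3 in library 2. For the 4 endothelial markers the sums were 0.629, 0.218, 0.128 and 0.505 nRPKM, on 1 to 20 reads per gene and library.

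The order of libraries 1, 2, 4 and 3 from high to low, seen for Sgk1 and Hsd11b1, was also that of 3 of 4 basal and 3 of 5 mesenchymal markers, and of 3.32% of the identifiers averaging 1 nRPKM or more. Of these identifiers, 22.5% were highest in library 1. No marker of these 4 lists was at 0 reads over all libraries. Type II markers went the other way in library 1, with a sum of 10444 nRPKM there and 16775 to 22623 nRPKM in the other libraries. The 4 club cell markers were highest in library 2, with a sum of 1059 nRPKM against 149.7 to 315.6 in the others. The type I sum was highest in library 3, at 517 nRPKM, and was 454 nRPKM in library 1. Of the leukocyte, endothelial, club and type I markers, 0 had the order of libraries 1, 2, 4 and 3. That order was noticed after the values were seen, and the part of these cell types in the levels of Sgk1, Cyp26b1 and Hsd11b1 was not tested.

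**Figure D4:**
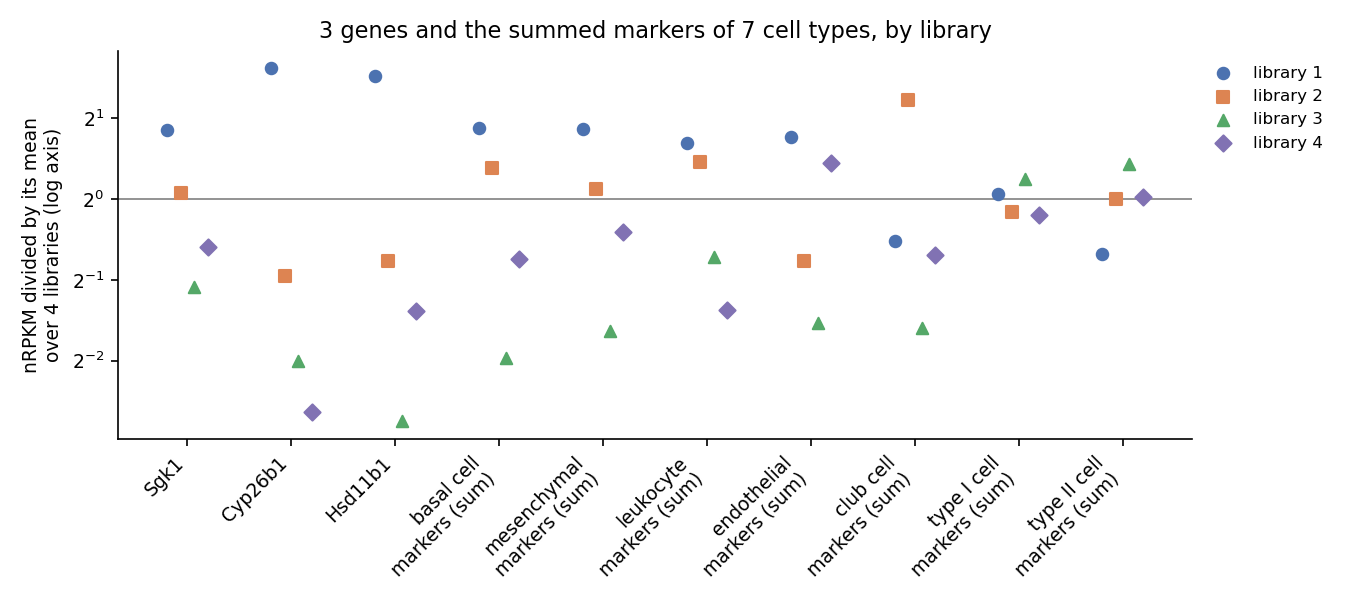
Levels of Sgk1, Cyp26b1 and Hsd11b1 and the summed levels of the markers of 7 cell types, each divided by its mean over the 4 libraries and drawn on a log axis. The 3 genes and the basal, mesenchymal, leukocyte and endothelial sums are highest in library 1, and the type II sum is lowest there. The club sum is highest in library 2 and the type I sum in library 3.

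Whether a gene varied between the 4 libraries by more than genes of like level was tested across all genes with edgeR (quasi-likelihood dispersion against its trend). Of the 10 genes, 7 passed the filter on low counts, and Cyp26a1, Cyp26b1 and Stra6 did not. The test called 0 of the 7, against 0.0152% of the 13156 genes tested (2 genes). With so few genes called at all, 0 of 7 does not show that these genes were even between libraries. At an unadjusted p under 0.05 it found 1 of the 7, Sgk1, against 5.13% of all genes tested, and 0 of the 7 without library 1, against 5.12%. With no filter on low counts it found 2 of the 9 genes with reads, Sgk1 and Cyp26b1, against 5.84%. DESeq2 marked 0 of the 9 as dispersion outliers, against 0.345% of 20579 genes. The variance of Sgk1 was 8.16 times the trend (edgeR, Benjamini-Hochberg adjusted p = 0.684, and 0.188 to 0.989 under the alternatives). It was 3.28 times the trend without library 1, 13.7 without library 2, 5.40 without library 3 and 12.6 without library 4. For the 6 others the variance was 0.308 to 1.89 times the trend.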

How the data were processed

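Polyadenylated RNA of 4 libraries with 1 group label was analysed. Per the file headers, the authors deposited for each library the count of reads uniquely aligned to each gene model and a size-factor-adjusted RPKM (nRPKM). GSNAP and the mm9 build are named in the submitters' processing notes. On versions, annotation, strand and filtering nothing is given in the sources used here. Symbols were matched by Entrez identifier to a RefSeq table of GRCm38.p6 for 25035 of 28096 identifiers.

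Levels are the deposited nRPKM. Log values are log2(nRPKM + 1), which understates differences of low genes. Total counts of 12133251 to 13591876 set the precision, and floors of 3 counts cover counting error only. Pairs of genes were compared by two-sided exact sign-flip permutation tests with Benjamini-Hochberg adjustment over 8 pairs (scipy 1.17.1). Spread between libraries was tested on the counts over all genes with edgeR 4.0.16 in R 4.3.3 (TMM, filterByExpr, intercept only, quasi-dispersion against the trended prior by the F distribution, Benjamini-Hochberg at 0.05), after testing on simulated data. DESeq2 1.42.0 was an alternative. Shared 50-base words and exon overlaps came from GENCODE M21 on GRCm38.

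The 10 genes and the 9 context lists and 7 marker lists were chosen with earlier results of these data known. The genes named are the 10 members, the 3 highest of each context list, all receptor, steroid handling, synthesis and breakdown genes, and for members with at least 100 reads in every library the gene of most like profile. Lrat, Pdpn, Krt5, Col1a1, Col1a2, Sgk2, Sgk3, Per2, Hsp90aa1, Xist and Eif2s3y were named in addition, and 1 gene that the rule would name is not reported here. Other scalings, pseudocounts, filters and the omission of each library were tried.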

Additional observations from a re-analysis of the deposited data

Results flagged for a closer look

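Of 59 values examined for a library far from the other 3, 5 had a gap to the nearest library that exceeded the 95% limit of Dixon's gap test. Chance gives about 1 in 20. Cyp26b1 was far higher in library 1 (0.486 nRPKM) than in libraries 2 to 4 (0.0253 to 0.0813 nRPKM), with a gap of 0.878 of the range. The log2 difference of Cyp26b1 and Cyp26a1 carried the same pattern with a gap of 0.857. With Cyp26a1 at 0 reads, that difference is Cyp26b1 alone on the log scale and not a separate result. Hsd11b1, which reactivates glucocorticoids, was also high in library 1 (3.83 nRPKM, against 0.198 to 0.779), with a gap of 0.840. Mt1, a metallothionein gene, was high in library 2 (312 nRPKM, against 82.6 to 109), with a gap of 0.886. Rdh11, a retinol dehydrogenase gene, was low in library 2 (2.76 nRPKM, against 3.25 to 3.31), with a gap of 0.880.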

How the results depend on the processing

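The count of 6 genes averaging 1 nRPKM or more was also 6 under the other scalings and in each set of 3 libraries, and 5 with a threshold of 2. The difference between the medians of the glucocorticoid-induced and retinoic acid genes had a mean of 1.499 ± 0.19 on the log2 scale and was positive in 4 of 4 libraries. Its size depended on the pseudocount, because 3 of the 4 retinoic acid genes averaged below 1 nRPKM, and it was 3.49 with a pseudocount of 0.1. The difference was 2.83 in CPM with no length correction (the cause was not tested). The spread test called 0 members in edgeR without the filter, with DESeq2 size factors and in each set of 3 libraries. Among values of single genes and pairs, 183 differed by less than the replicate spread under their alternative or kept their side, 15 moved, all of them ranges over libraries. The count of neighbours that did not overlap was 3 to 4 in sets of 3 libraries, and without library 1 Stra6 came above Cyp26b1. Genes were paired within a library, but no pairing of libraries was possible because the labels give a single group and no replicate numbers. Depth limits what can be said of Cyp26a1, Cyp26b1, Stra6 and Zbtb16.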

Other observations

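The genes whose profile over the 4 libraries was most like that of a member, among genes averaging 5 nRPKM or more, were looked up for the 4 members with at least 100 reads in every library. Likeness was the largest absolute difference of the centred log2(nRPKM + 1) values, and it describes 4 libraries only. Sgk1 was most like Itgb4, an integrin gene of epithelial hemidesmosomes (6.22 nRPKM), at a difference of 0.10, and 1 of 6025 genes lay within 0.1. Dhrs3 was most like Alyref, an mRNA export factor gene, at 0.06, with 13 genes within 0.1. Klf9 was most like Cisd2 at 0.02, with 48 genes within 0.1, and Per1 was most like Herpud1, a gene of the endoplasmic reticulum stress response, at 0.02, with 94 genes within 0.1.

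Motifs of other pathways that act on these genes were also counted in the promoter windows. The E-box CACGTG, which clock factors bind, was in a window of Per1, of Fkbp5 and of Sgk1 and in 7.15% of all windows. TGACG, a part of the cAMP response element, was in 5 of the 22 windows, those of Klf9, Per1, Sgk1 and Tsc22d3, and in 20.8% of all windows. These matches were not tied to any level.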
